A study of Mus musculus with 8 samples.

Results

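Single-cell RNA sequencing of the left ventricle was searched for nonclassical patrolling monocytes, the circulating monocytes that crawl along the inner wall of blood vessels. Cells were selected on measured counts, by a rule that asked for at least 4 UMIs (unique molecular identifiers, each a captured RNA molecule) summed over 4 genes, Ace, Treml4, Ear2 and Adgre4, called the gate genes here. The rule also asked for at least 1 UMI of Lyz2, at most 1 of Ly6c2, at most 1 of Cd79a and Cd3e together and none of Cdh5. It set upper limits on C1qa, C1qb and C1qc (below 0.2% of UMIs), on a sum that includes Thbs1 and Vcan (below 0.3%) and on S100a8 and S100a9 (below 2%). It found 424 of the 19637 cells with at least 200 genes and at most 30% mitochondrial UMIs, 166 of 11377 in the sham library and 258 of 8260 in the IR library. The levels of the genes in the rule are therefore descriptions of the choice and not findings.

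The mice were adult C57BL/6 males that had either a sham operation or ischemia-reperfusion (IR), in which the left anterior descending artery was tied and released, and left ventricles were dissociated 6 h later, with 3 hearts pooled in a sample. The labels name 4 samples for each of 2 times, 0 h and 6 h. The 0 h samples were taken as the sham hearts of the study's text, which the labels alone do not settle. No transgene or gene deletion is recorded for these samples. All cells of a condition came in 1 matrix with no mark of the sample, so each condition was 1 library without replicates. No test between sham and IR was possible, and the intervals given cover counting error only. The sham library held 58653308 UMIs in 11620 barcodes and the IR library 75033226 UMIs in 8539. The libraries shared 30 barcode sequences, and no selected cell carried one of them.

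Most of the selected cells did not carry the markers of monocytes. Ace was the only gate gene found in 111 of the 166 sham cells (66.9%) and 151 of the 258 IR cells (58.5%), and these are called Ace-only cells here. At least 2 gate genes were found in 51 sham cells (30.7%) and 100 IR cells (38.8%), called multi-gate cells, and a single gate gene other than Ace in the last 4 and 7 cells. Ptprc, the CD45 antigen of blood-derived cells, had a UMI in 50 of 51 and 97 of 100 multi-gate cells, but in 2 of 111 and 25 of 151 Ace-only cells. Dcn, which encodes the matrix proteoglycan decorin of fibroblasts, had a UMI in 111 of 111 sham and 150 of 151 IR Ace-only cells. The 8 genes of a fibroblast list (Gsn, Dcn and Mgp the highest) took a median of 5.64% and 5.39% of the UMIs of Ace-only cells and 0.0305% and 0.0233% of those of multi-gate cells. Lyz2, the lysozyme gene by which the rule asked for a myeloid cell, stood at exactly 1 UMI in 83 of the 111 sham and 90 of the 151 IR Ace-only cells. The data thus go against the name for the Ace-only cells, which are described by their genes only, and the multi-gate cells are the ones that carried the named population's markers.

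**Figure D1:**
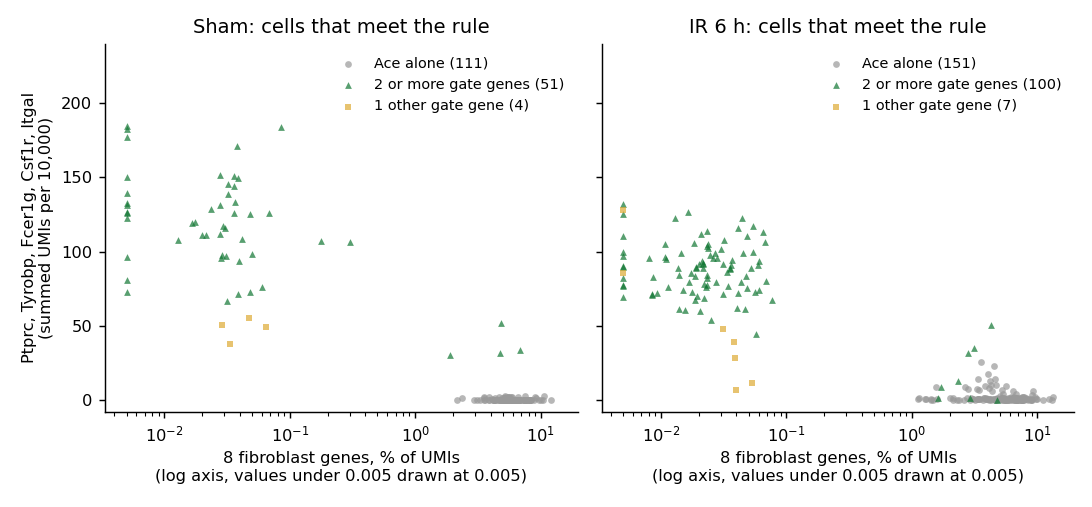
Each point is a selected cell, with the share of its UMIs in 8 fibroblast genes on a log x axis and the summed UMIs per 10,000 of 5 leukocyte genes on the y axis, for sham and IR. The Ace-only cells form a group at 1.11% fibroblast genes or more, where their leukocyte genes had medians of 0 in sham and 0.674 in IR, and multi-gate cells had medians of 119 and 87.2.

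Nonclassical monocytes arise in the mouse from classical, Ly6C-high monocytes through the nuclear receptor NR4A1 and the transcription factor C/EBPβ, and live on in the blood with low Ly6C, high CX3CR1, CD43 (Spn) and the Fc receptor FcγRIV (Fcgr4). They hold on to the endothelium through the integrin LFA-1, whose alpha chain is Itgal, and clear debris from the vessel wall. Classical monocytes carry CCR2 and enter injured tissue. Of the gate genes, Ace encodes the angiotensin-converting enzyme, Treml4 a receptor of the TREM family, Ear2 a secreted ribonuclease and Adgre4 an adhesion G protein-coupled receptor. ACE is also made by endothelium and other cells, and Ear2 has near-identical relatives whose reads the counting could not always tell apart.

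In the annotation of the build used for alignment (GRCm38, called mm10), all 4 are protein-coding genes on the plus strand. Ace lies at chr11:105967945-105989964, Treml4 at chr17:48264295-48275360, Ear2 at chr14:44102654-44103534 and Adgre4 at chr17:55749984-55853662. Nr4a1 lies at chr15:101254269-101274795, also on the plus strand. Since the gate genes chose the cells and Nr4a1 is the factor best known for this cell type, their promoters are shown, as RefSeq places them in GRCm38.p6, from 250 bases before to 50 bases after the start, 5′ to 3′. Capitals mark GAGGAAG, a purine-rich word of the kind bound by PU.1, or TGCGTCA, a word of the cAMP response element kind, on either strand.
Ace, chr11:105967698-105967997: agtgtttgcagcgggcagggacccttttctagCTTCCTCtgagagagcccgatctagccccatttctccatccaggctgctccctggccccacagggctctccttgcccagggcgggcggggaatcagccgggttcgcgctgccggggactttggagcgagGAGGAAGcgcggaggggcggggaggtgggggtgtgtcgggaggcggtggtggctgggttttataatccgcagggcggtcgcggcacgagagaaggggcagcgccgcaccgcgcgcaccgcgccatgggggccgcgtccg
Treml4, chr17:48264045-48264344: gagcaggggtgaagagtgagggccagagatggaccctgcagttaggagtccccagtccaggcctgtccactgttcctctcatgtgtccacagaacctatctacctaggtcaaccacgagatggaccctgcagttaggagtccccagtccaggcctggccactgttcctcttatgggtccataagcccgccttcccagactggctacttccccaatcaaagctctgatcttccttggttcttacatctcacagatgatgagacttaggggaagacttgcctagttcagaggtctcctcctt
Ear2, chr14:44102404-44102703: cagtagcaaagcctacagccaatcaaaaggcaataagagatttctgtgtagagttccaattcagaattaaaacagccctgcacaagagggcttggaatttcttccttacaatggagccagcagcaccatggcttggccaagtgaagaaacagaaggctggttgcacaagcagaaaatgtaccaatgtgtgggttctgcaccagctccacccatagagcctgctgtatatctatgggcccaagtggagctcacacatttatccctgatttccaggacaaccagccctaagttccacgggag
Adgre4, chr17:55749734-55750033: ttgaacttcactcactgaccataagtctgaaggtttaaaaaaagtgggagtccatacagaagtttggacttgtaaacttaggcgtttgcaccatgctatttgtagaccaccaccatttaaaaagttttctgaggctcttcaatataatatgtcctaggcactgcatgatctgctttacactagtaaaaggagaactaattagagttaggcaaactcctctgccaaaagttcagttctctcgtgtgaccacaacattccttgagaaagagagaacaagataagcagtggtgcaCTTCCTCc
Nr4a1, chr15:101266596-101266895: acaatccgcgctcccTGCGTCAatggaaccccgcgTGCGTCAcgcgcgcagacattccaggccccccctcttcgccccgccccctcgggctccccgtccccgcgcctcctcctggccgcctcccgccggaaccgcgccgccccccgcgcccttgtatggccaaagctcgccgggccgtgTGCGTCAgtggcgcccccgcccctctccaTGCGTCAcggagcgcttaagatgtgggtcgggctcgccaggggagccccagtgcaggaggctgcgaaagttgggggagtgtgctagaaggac
The purine word occurred 2 times at this start of Ace, once in Adgre4 and not in the windows of Treml4 and Ear2, and 13.6% of the 32851 promoters in the table held it. TGCGTCA occurred 4 times in Nr4a1 and in none of the other windows shown, against 2.12% of all promoters with at least 1. For Ace the table has a second, internal start, whose window held neither word. Such matches describe letters and not binding.

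Beyond the genes of the rule, multi-gate cells carried the set that marks nonclassical monocytes. Itgal had a UMI in 45 of 51 sham and 88 of 100 IR cells, Fcgr4 in 42 and 85, Cx3cr1 (the fractalkine receptor) in 33 and 64, and Nr4a1 in 47 and 99. Spn was found in 36 of 51 sham cells and 47 of 100 IR cells. Because depth differed (median 3569 UMIs per multi-gate cell in sham and 9012 in IR), shares were also taken after drawing 1000 UMIs from each cell, which left out none of these cells. At that depth Fcgr4 was found in 43.1% and 31.0% of multi-gate cells, 4.35% and 4.13% of classical monocytes and 0.174% and 0.455% of B cells, a type that should lack it and whose median depth was 2296.5 and 3422 UMIs. Itgal was found in 54.9% and 32.0% of multi-gate cells, against 15.5% and 7.85% of classical monocytes and 2.78% and 3.94% of B cells. Dcn at that depth was found in 9.80% and 10.0% of multi-gate cells and in 11.3% and 10.8% of B cells, so that the fibroblast gene was near the level of free RNA in most of them. In 4 sham and 8 IR multi-gate cells, fibroblast genes took over 1% of UMIs, and these are named below where they change a value.

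**Figure D2:**
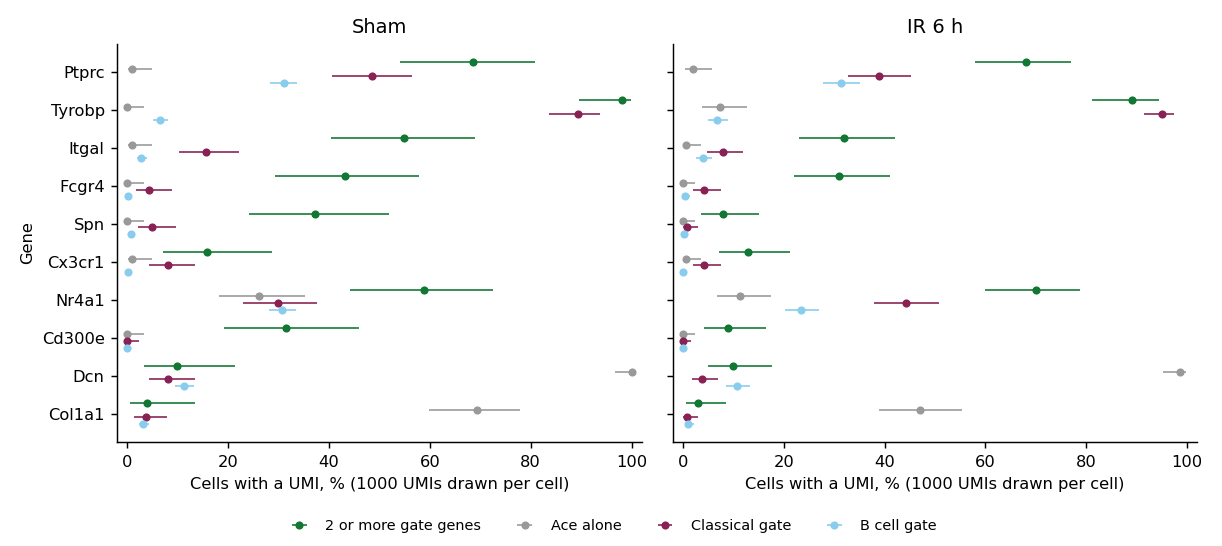
The x axis gives the share of cells with at least 1 UMI after 1000 UMIs were drawn per cell, and bars are exact 95% binomial intervals, for 10 genes in 4 groups of cells. Of the 4 groups, multi-gate cells had the highest shares for Itgal, Fcgr4, Spn and Cd300e, and Ace-only cells for Dcn and Col1a1.

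Other cell types that share a gate gene were looked for by their defining genes. None of 8 eosinophil markers had a UMI in the sham multi-gate cells and 1 of 8 had one in IR (summed level 0.988 CPM, counts per 1000000 UMIs), with Siglecf at 0 in both. Natural killer cell markers summed to 0 and 1.98 CPM and T cell markers to 4.16 and 16.8 CPM. The neutrophil list summed to 1794 and 1971 CPM with 8 of 10 genes found, led by S100a9 and S100a8, which the rule limits, and with the granule genes Ngp and Camp at 0. After 1000 UMIs were drawn per cell, S100a9 was found in 7.84% and 34.0% of multi-gate cells and in 3.30% and 33.3% of B cells. Both groups were chosen below the same limit on S100a8 and S100a9, so these shares describe the choice and do not decide where its RNA came from. In sham, 1 cell gave 46.6% of the S100a9 UMIs. The neutrophil list summed to 45.1 and 844 CPM in B cells and 23.8 and 1272 CPM in Ace-only cells. Csf3r, the receptor of that list for the growth factor G-CSF, was at 191 and 104 CPM in multi-gate cells and 1362 and 1029 CPM in neutrophils. The dendritic cell list summed to 1020 and 109 CPM with 3 and 6 of 9 genes found, led by Bst2 (820 and 68.2 CPM), which interferon also induces, and with Xcr1, Clec9a and Siglech at 0 in both. The part of such cells in the results was not tested. Mertk, a receptor of resident macrophages, had a UMI in 1 of 51 and 2 of 100 cells. Cd209a and Mgl2, genes of dendritic-type cells, came mainly from few sham cells, since 2 cells held the 47 UMIs of Cd209a and 1 cell held 87.1% of the Mgl2 UMIs. Of the rest of the selected cells, the 11 with 1 gate gene other than Ace had medians of 49.5 and 39.2 UMIs per 10,000 of the leukocyte genes and were too few to describe further.

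Within each library, multi-gate cells were set against classical monocytes (161 cells in sham and 242 in IR), chosen by at least 4 Ly6c2 UMIs and at most 1 UMI of the gate genes. The sham group also carried natural killer cell genes at 530.6 CPM, T cell genes at 172.1 CPM and fibroblast genes at 3507 CPM. In IR these lists summed to 4.136, 16.55 and 331.5 CPM. The part of other cells or mixed droplets in the classical group was not tested, here or in its ratios between IR and sham. Of 30 nonclassical genes listed besides the gate genes, 28 reached 50 CPM in each library's comparison, and 23 of them were over 2-fold higher in multi-gate cells in both libraries, with none lower and medians of 2.77 and 2.5 on the log2 scale. Across all 2637 genes compared, 6.6% were over 2-fold higher in both libraries and 2.92% lower. Cd300e, an activating receptor of myeloid cells, stood at 333 CPM in sham and 84.0 CPM in IR multi-gate cells and had no UMI in either group of classical monocytes, which makes it at least 132-fold and 94.7-fold higher when a count of 0 is set to 3 UMIs. Eno3, a form of enolase, was at 458 and 130 CPM against 5.88 and 1.18 CPM, log2 ratios of 6.28 (interval 5.19 to 7.63) and 6.79 (5.40 to 8.68). Fcgr4 was at 624 and 356 CPM against 42.8 and 48.5 CPM. Itgal was at 799 and 418 CPM against 149 and 73.0 CPM. Cd36, a scavenger receptor for oxidized lipid, was at 175 and 309 CPM against 9.24 and 10.6 CPM. Bcl2a1a, a survival gene of the BCL2 family with near-identical copies, was 4.52 and 3.38 log2 units higher. Of 17 monocyte transcription factors compared, 4 were over 2-fold higher in both libraries and none lower, with medians of 0.409 and 0.334. Among them, Pou2f2 was 2.23 and 2.46 log2 units higher than in classical monocytes, Nr4a1 1.68 and 1.18, Tcf7l2 4.08 and 2.16, and Cebpb 0.66 and 0.42.

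The classical list ran the other way, with 11 of 16 members over 2-fold lower in both libraries and none higher. Since Ly6c2 and Vcan are in that list and the rule fixed their order, the count without them, 9 of 14 lower and none higher, is the one to read. Ccr2 was at 125 and 416 CPM in multi-gate cells and 643 and 1206 CPM in classical monocytes. F13a1, the coagulation factor XIII A chain, was at 4.16 and 95.8 CPM against 295 and 1125 CPM, and Chil3, a chitinase-like protein of inflammatory myeloid cells, at 16.6 and 1016 CPM against 1417 and 5891 CPM. Vim, the intermediate filament vimentin, had log2 ratios of −2.40 and −1.87. MHC class II genes, which present peptides to CD4 T cells, were over 2-fold higher in both libraries for 4 of 8 members, with Cd74 1.27 and 2.14 log2 units higher.

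Against C1q-high macrophages (3126 and 667 cells), the tissue macrophages of the same libraries, multi-gate cells lacked the residency genes. Lyve1 was at 0 and 0.988 CPM against 361 and 802 CPM, and Folr2 at 0 and 2.96 CPM against 606 and 501 CPM. Of 9 macrophage identity genes compared, with the C1q genes of the rule left out, 8 were over 2-fold lower in both libraries and none higher, against 7.46% lower and 12.5% higher over all 2774 genes compared. In the other direction Plac8, Napsa and Itgal were 8.27 and 7.98, 7.39 and 6.93, and 6.74 and 6.50 log2 units higher. Plac8, which classical monocytes carry as well, was lower in multi-gate cells than in those, by log2 ratios of −0.93 and −0.12.

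The Ly6c2 limit of the rule cut the libraries differently. Without it, 189 sham and 118 IR cells with at least 2 gate genes met the rest of the rule. In sham, 138 of the 189 (73.0%, exact interval 66.1 to 79.2) had 2 or more Ly6c2 UMIs, with a median over the 189 of 20, an upper quartile of 48 and a highest cell of 166. In IR, 18 of 118 (15.3%, 9.30 to 23.03) had 2 or more, the median was 0 and the highest cell had 13. The summed level over these cells was 3733 CPM in sham and 72.4 CPM in IR. Ly6c2 was also lower in IR in classical monocytes, which were chosen for Ly6c2 and for at most 1 gate UMI, at 7332 against 912 CPM, and in B cells, at 274 against 3.53 CPM. Ly6c2 lies at chr15:75108158-75111970 on the minus strand beside closely related Ly6 genes. What moved its level in all of these cells was not tested.

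**Figure D3:**
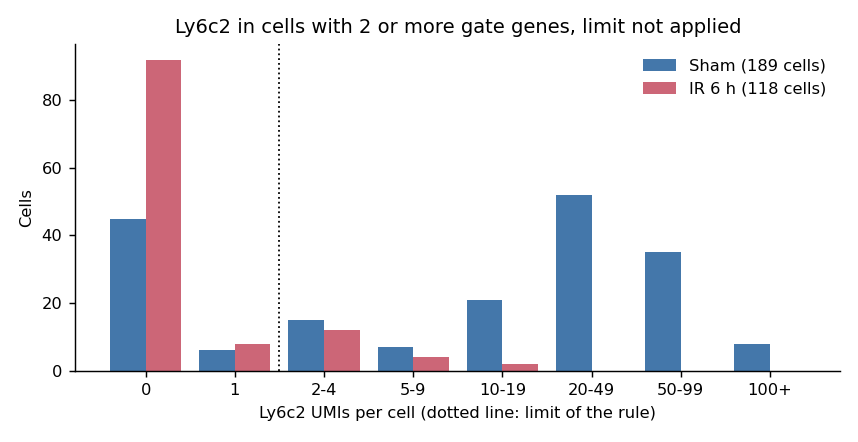
Bars count the cells with 2 or more gate genes by their Ly6c2 UMIs when the limit is not applied, for sham and IR. In sham 138 of 189 cells lie right of the limit, and in IR 18 of 118.

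Between the sham cells that the limit kept and those it removed, few nonclassical genes differed, and other lists differed more. The limit is a count of UMIs, and the kept cells were shallower (median 3569 UMIs, against 6965.5 in the removed cells). The split is therefore in part one of depth, whose share in the differences was not tested. Among 29 nonclassical genes at 50 CPM or more, 3 were over 2-fold higher in the kept cells and none lower, with a median log2 difference of 0.28, against 4.73% higher and 3.71% lower over all 3150 genes. Itgal, Cx3cr1, Nr4a1 and Eno3 differed by −0.32, −0.18, −0.07 and −0.13. Cd300e was 1.36 log2 units higher in the kept cells. Of 12 classical genes, with Ly6c2 and Vcan left out because the rule uses them, 7 were over 2-fold lower in the kept cells, among them Chil3 (−5.05), and 1 was higher. Of 8 MHC class II genes 3 were over 2-fold higher in the kept cells and none lower, with H2-Ab1 at 1.10. Of 7 fibroblast genes 5 were over 2-fold higher in the kept cells and none lower, with a median of 1.31, and their part in the other differences was not tested.

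How common these cells were in IR and sham depended on that limit. Multi-gate cells made up 0.448% of sham cells (exact interval 0.334 to 0.589) and 1.21% of IR cells (0.986 to 1.47). Without the Ly6c2 limit the shares were 1.66% (1.43 to 1.91) and 1.43% (1.18 to 1.71), and their order was the reverse. When 2000 UMIs were drawn from every cell and a gate sum of 2 was asked for, multi-gate cells with the Ly6c2 limit made up 0.569% and 0.870%. Over all selected cells, Ace-only cells included, the shares were 1.46% and 3.12%, and 1.13% and 1.23% at the drawn depth. The denominators changed as well, since neutrophils were 2.14% of sham and 25.4% of IR cells. In whole-library shares fewer cells of a type and more cells of others cannot be told apart.

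Between IR and sham, inflammatory genes of the multi-gate cells were mostly higher in IR, and interferon-stimulated genes mostly lower. Over the 3298 genes at 50 CPM or more in either library, 11.2% were over 2-fold higher in IR and 10.9% lower, and the median log2 ratio was −0.06. For all selected cells together, the shares were 7.67% and 6.14% of 3470 genes. In all ratios below, cells that the Ly6c2 limit removed are left out unless stated. Among the genes named below, ratios that moved by over 1.5-fold without that limit included those of Fabp5 (3.43 without it), Slc7a11 (2.72) and Hmox1 (2.48), which came closer to 0, and Il1b (2.47), Tnf (2.93) and Bcl2a1b (2.35), which moved away from it, besides those given with their genes.

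Of 19 inflammatory mediators measured, 17 were over 2-fold higher in IR and none lower, with a median log2 ratio of 2.36. Il1b, the cytokine interleukin-1β, was at 2522 CPM in sham and 8953 CPM in IR, a log2 ratio of 1.83 (1.71 to 1.95). After 1000 UMIs were drawn per cell it was found in 56.9% and 91.0% of multi-gate cells, against 2.70% and 19.2% of B cells. Tnf was at 137 and 679 CPM (2.31, 1.80 to 2.86) and at equal depth was found in 9.80% and 36.0% of cells, against 0.435% and 1.97% of B cells. The neutrophil-attracting chemokine Cxcl2 was at 608 and 6450 CPM (3.41, 3.17 to 3.65). Ccl3 was at 187 and 1760 CPM and Ccl4 at 233 and 2215 CPM, both chemokines that attract monocytes and T cells, with log2 ratios of 3.23 and 3.25. Ptgs2, the inducible prostaglandin synthase, was at 70.7 and 567 CPM, and Osm, oncostatin M, at 37.4 and 323 CPM. Il1rn, the interleukin-1 receptor antagonist, was at 37.4 and 338 CPM. In classical monocytes 18 of 21 mediators were over 2-fold higher and 2 lower, with a median of 3.03, against 11.3% higher and 11.2% lower over all 3032 genes compared there. In C1q-high macrophages 8 of 19 were higher with a median of 0.89, against 8.56% higher over all 2956 genes. The ratios of Il1b were 3.31 in classical monocytes and −0.58 in C1q-high macrophages, and how groups of cells differ in this was not tested.

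B cells serve as the reference for free RNA (RNA of other cells caught in a droplet). They were chosen by at least 2 UMIs of Cd79a, none of Cd3e and at most 1 of Lyz2. The rule's limits on the C1q genes, on S100a8 and S100a9 and on Cdh5 applied to them too. Droplets with more free RNA of myeloid cells were thereby left out, so B cell levels can lie below those of free RNA elsewhere. Of 11 mediators compared in them, 9 were over 2-fold higher in IR and 1, Ccl5, lower, with a median of 3.73, against 3.86% higher and 4.84% lower over all 2931 genes. There, Cxcl2 was at 44.3 CPM in sham and 1044 CPM in IR, and Il1b at 22.2 and 316 CPM. For Cxcl3 the B cell level in IR, 363 CPM, was close to the 580 CPM of multi-gate cells, which had no UMI of it in sham. Cxcl5 was at 355 CPM in B cells and 351 CPM in multi-gate cells in IR, and 1 cell gave 73.5% of its UMIs. Ccl2, the ligand of CCR2, was at 1494 CPM in B cells and 653 CPM in multi-gate cells in IR, and Cxcl1 at 472 and 539 CPM, so the counts of these chemokines are not read as expression. Without the 4 mediators whose B cell level in IR was at least 50% of the multi-gate level (Ccl2, Ccl7, Cxcl1 and Cxcl3, chosen after their values were seen), 13 of 15 were over 2-fold higher in IR and none lower, with a median of 2.31. Single cells also gave 57.1% of the sham UMIs of Ccl4 and 41.2% of those of Ptgs2. Tnf was at 18.7 CPM, Ccl3 at 128 CPM, Ccl4 at 149 CPM and Osm at 26.8 CPM in B cells of the IR library, well below multi-gate cells. How much of each level in multi-gate cells was free RNA was not tested.

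The 15 genes with the highest ratios, ranked by the interval bound nearest to 0, were Cxcl3, Chil3, Saa3, Cxcl5, Fabp5, Ier3, Gm5483, Cd14, Cxcl2, Slc7a11, Ccl4, Cd33, Ccl3, Basp1 and AA467197. Chil3 had 4 UMIs in 4 sham cells and 1029 UMIs in 49 IR cells, of which the highest cell gave 20.2%. Without the Ly6c2 limit its log2 ratio was 1.96, against 5.93 with it. Saa3, serum amyloid A3, had no UMI in sham and 314 in IR, but 1 cell gave 84.1% of them. Fabp5, a fatty acid-binding protein, was at 41.6 and 1147 CPM (4.79, 3.9 to 5.85) and at equal depth was found in 1.96% and 41.0% of cells, against 1.13% and 1.36% of B cells. Ier3, an early stress gene, was at 95.7 and 1418 CPM (3.89, 3.30 to 4.55). Cd14, a co-receptor for bacterial lipopolysaccharide, was at 99.9 and 1389 CPM (3.80, 3.22 to 4.45) and at equal depth was found in 7.84% and 53.0% of cells, against 1.91% and 7.88% of B cells. Slc7a11, the cystine transporter subunit, was at 33.3 and 502 CPM (3.91, 2.92 to 5.13). Gm5483 and AA467197 had no UMI in sham and came from 13 IR cells each. Fabp5, Ier3, Cd14 and Slc7a11 were also higher in classical monocytes, with log2 ratios of 3.68, 3.17, 2.72 and 3.84.

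NF-κB is the factor that many of these genes share as an activator, and its pathway genes were listed with their inhibitors. Of 17 measured, 8 were over 2-fold higher and none lower, with a median of 0.73. Nlrp3, the inflammasome sensor, was at 45.8 and 388 CPM (3.08, 2.23 to 4.10) and at equal depth (1000 UMIs) was found in 5.88% and 29.0% of cells, against 0.435% and 3.48% of B cells. The inhibitors Nfkbia and Tnfaip3 had log2 ratios of 1.37 (1.21 to 1.53) and 1.01 (0.64 to 1.42). The subunits Rela and Relb stood at −0.03 and −0.32, with intervals that include 0. Among 13 stress genes 8 were over 2-fold higher, with a median of 1.27, which ran from 0.19 with no filter on low counts to 2.36 without the Ly6c2 limit over 14 alternative settings. Hmox1, heme oxygenase-1, was at 37.4 and 409 CPM (3.45, 2.51 to 4.59), with 43.2% of its IR UMIs in 1 cell, and Fth1, ferritin heavy chain, at 4711 and 11340 CPM (1.27, 1.18 to 1.36). Among 21 immediate early genes 5 were over 2-fold higher and none lower. Atf3, the stress-induced transcription factor that the study is about, was at 387 and 504 CPM (0.38, 0.06 to 0.72) and was found in 31.4% and 29.0% of cells at equal depth. Fos was at 1315 and 1281 CPM, a log2 ratio of −0.04 (−0.22 to 0.14).

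Genes of cell death and survival, among them the BCL2 family, were also followed. Of the 13 genes in the list at 50 CPM or more, 5 were over 2-fold higher and 1 lower. Bcl2a1b was at 666 and 1891 CPM (1.51, 1.27 to 1.75), although its copies Bcl2a1a and Bcl2a1d share reads with it. Mcl1 was at 986 and 1661 CPM (0.75, 0.55 to 0.95), and Cflar, an inhibitor of caspase-8, at 108 and 299 CPM (1.47, 0.89 to 2.11). The pro-apoptotic Bbc3 was at 99.9 and 23.7 CPM (−2.08, −2.95 to −1.20), and Bcl2l11, which encodes BIM, at 29.1 and 119 CPM (2.02, 0.94 to 3.37). The genes over 2-fold higher thus included inhibitors of cell death, the pro-apoptotic Bcl2l11 and the death receptor Fas (6 UMIs in sham and 75 in IR).

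**Figure D4:**
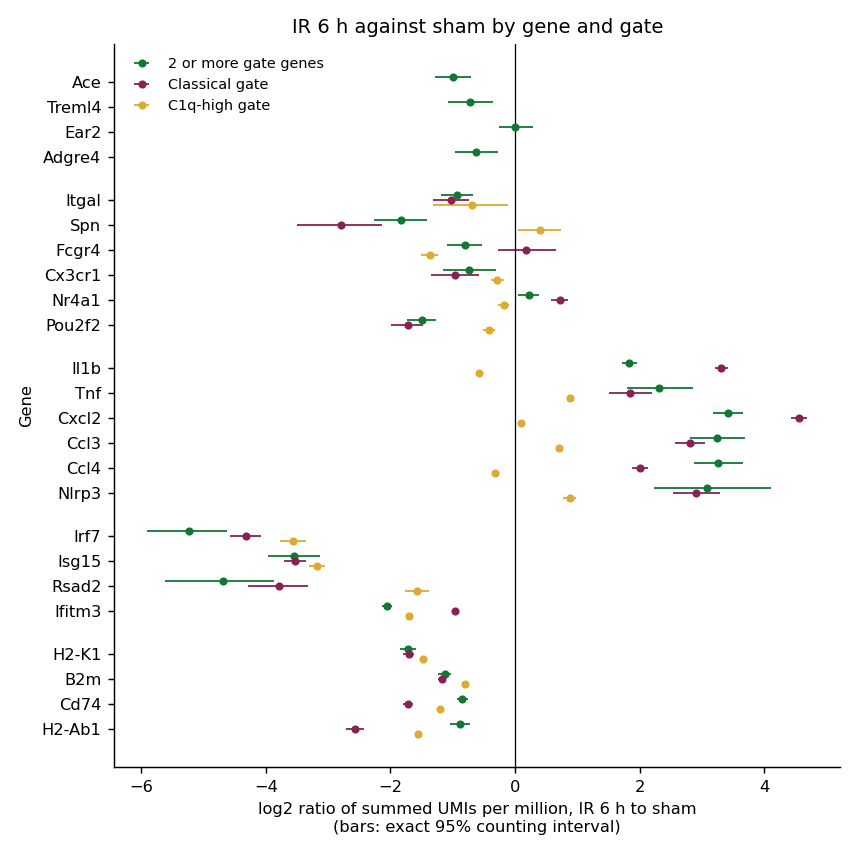
Points are log2 ratios of CPM, IR to sham, with exact 95% counting intervals, in multi-gate cells, classical monocytes and C1q-high macrophages (gate genes are shown for multi-gate cells only). Inflammatory genes lie between 1.83 and 3.41 in multi-gate cells and interferon genes between −5.23 and −2.06.

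Genes that respond to interferon were lower in IR. Of 24 measured, 21 were over 2-fold lower and 1 higher, with a median log2 ratio of −4.06, and the summed level went from 16580 CPM in sham to 3493 CPM in IR. Irf7, the factor that amplifies the interferon response, was at 891 CPM in sham and 23.7 CPM in IR (−5.23, −5.91 to −4.62) and at equal depth was found in 45.1% and 3.0% of cells, against 22.9% and 2.42% of B cells. Ifit3, an antiviral effector, had 116 UMIs in 32 sham cells and 1 UMI in IR, and its ratio without the Ly6c2 limit was −5.07. Isg15 was at 795 and 68.2 CPM, and Ifitm3 at 9688 and 2327 CPM. The 15 genes with the lowest ratios by the same ranking were Cd209a and Mgl2, described above, and Ifit3, Ifit3b, Phf11b, Irf7, Xaf1, Ly6i, Usp18, Oas3, Gm4955, Ifit2, Rsad2, Ifit1 and Ifit1bl1, several of them known interferon-induced genes. The member that was over 2-fold higher was Cxcl10, a chemokine induced by interferon and by NF-κB, at 204 and 413 CPM (1.02, 0.59 to 1.48). Ifit3 and Ifit3b are near-identical copies.

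The other groups of cells had the same direction. The list had medians of −3.53 in classical monocytes, −2.55 in C1q-high macrophages, −3.03 in neutrophils, −3.19 in B cells and −2.69 in Ace-only cells. Without the multi-gate cells with over 1% fibroblast genes, the medians of the inflammatory and interferon lists were 2.73 and −4.29. MHC class I genes, which interferon induces, were over 2-fold lower for 10 of 11 members in multi-gate cells, with a median of −1.71 and B2m at 4403 and 2008 CPM, and had medians from −1.93 to −1.07 in the other groups. Over 14 alternative settings the interferon median in multi-gate cells ran from −4.29 to −3.74. Whether a single sample of the sham pool carried these genes could not be seen, because cells could not be assigned to samples.

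**Figure D5:**
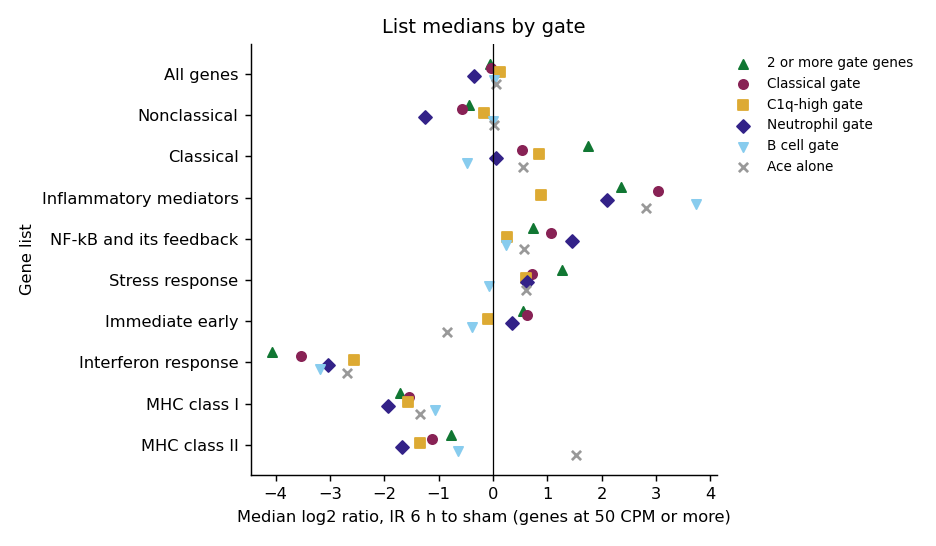
Points are median log2 ratios, IR to sham, of the genes of 9 lists and of all genes at 50 CPM or more, in 6 groups of cells. In multi-gate cells the inflammatory list lies at 2.36 and the interferon list at −4.06, and the other groups lie on the same side of 0 for both (the classical list is plotted with Vcan, which the rule limits).

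Genes that mark nonclassical monocytes were on balance lower in IR multi-gate cells. Of 29 besides the gate genes, 3 were over 2-fold higher and 10 lower, with a median of −0.44 against −0.06 for all genes. The same list had 6 of 17 genes over 2-fold lower and 2 higher in classical monocytes, with a median of −0.57, and 12 of 21 lower and 2 higher in neutrophils, with a median of −1.26, where 21.6% of all 2492 genes were lower and 12.4% higher. How the groups of cells differ in this was not tested. In multi-gate cells the median of this list ran from −0.698 to −0.349 over 14 alternative settings, among them the rule at equal depth. The rule asked for 4 gate UMIs at any depth, and IR multi-gate cells were deeper (median 9012 UMIs, against 3569 in sham). They could thus enter at a lower level of the gate genes, and the part of this in the ratios was not tested. Spn was at 370 and 104 CPM (−1.84, −2.26 to −1.41), Cd300e at 333 and 84.0 CPM (−1.99, −2.44 to −1.53), Pglyrp1 at 828 and 132 CPM (−2.64, −2.97 to −2.32) and Eno3 at 458 and 130 CPM (−1.81, −2.19 to −1.43). The transcription factors Klf2 and Pou2f2 had log2 ratios of −1.80 (−2.0 to −1.60) and −1.5 (−1.73 to −1.27). Itgal was at 799 and 418 CPM (−0.94, −1.18 to −0.68). Nr4a1 and Cebpb, the factors named above, were at 1377 and 1599 CPM (0.22, 0.04 to 0.39) and 4602 and 5169 CPM (0.17, 0.07 to 0.26). Without the Ly6c2 limit their log2 ratios were 0.024 and −0.0133. Higher in IR were Bcl2a1b, Cd274 (the checkpoint ligand PD-L1, at 158 and 324 CPM) and Slc12a2. The gate genes are given as a description, with Ace at 591 and 295 CPM, Treml4 at 370 and 224 CPM, Ear2 at 574 and 576 CPM and Adgre4 at 400 and 259 CPM. Spn and Klf2 were also lower in IR in classical monocytes, by −2.80 and −2.47.

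Of 14 classical genes outside the rule, 8 were over 2-fold higher in IR multi-gate cells and 1 lower, with a median of 1.68. With Vcan included the median was 1.74, and over 14 alternative settings it ran from 0.61 without the Ly6c2 limit to 1.87. Ccr2 was at 125 and 416 CPM (1.74, 1.20 to 2.32), and at equal depth was found in 3.92% and 31.0% of cells, against 0.435% and 0.455% of B cells. Fn1 was at 8.32 and 154 CPM and F13a1 at 4.16 and 95.8 CPM, from 2 and 1 sham UMIs. Without the Ly6c2 limit the log2 ratios of Ccr2, Fn1 and F13a1 were 1.47, 1.02 and 2.2. Of 7 genes of recently recruited macrophages outside the rule, 4 were over 2-fold higher and 1 lower, with a median of 2.45. With the rule genes included the median was 2.56, and it ran from 1.6 without the Ly6c2 limit to 3.22 without cells over 1% fibroblast genes. The genes outside the rule include Fn1, Chil3 and Saa3, already described, and Slfn4, which was lower at 154 and 27.7 CPM. Hp, haptoglobin, was at 146 and 512 CPM (1.81, 1.32 to 2.35). Ly6c1 (84 UMIs in 7 IR cells) is also an endothelial gene. When cells with over 1% fibroblast genes were left out, the ratios of Ccr2, Fn1 and F13a1 were 2.14, 4.80 and 4.47. Of 22 adhesion genes 3 were over 2-fold higher and 4 lower, shares near those over all genes, with Cd44 at 320 and 994 CPM (1.63, 1.30 to 1.99) and Icam1 at 41.6 and 183 CPM, and Selplg, the ligand of P-selectin, at 495 and 163 CPM (−1.60, −1.95 to −1.25).

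The single cells were not uniform. In IR, Il1b per 10,000 UMIs ran from 10.5 at the lowest decile over a median of 90.3 to 173 at the highest decile, and in sham from 0 over 10.1 to 72.6. Tnf was at 0 up to the lower quartile of IR cells, at 8.75 at the upper quartile and at 71.5 in the highest cell. MHC class II was also uneven among cells. H2-Ab1 had a UMI in 21 of 51 sham and 42 of 100 IR cells, with medians of 0 and highest cells of 187 and 149 per 10,000 UMIs. Cd74, the invariant chain, had medians of 6.40 and 6.0 and highest deciles of 87.0 and 110. In sums, Cd74 was at 5747 and 3190 CPM (−0.85, −0.94 to −0.76), and 1 of 8 MHC class II genes was over 2-fold lower.

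The Ace-only cells had their own differences between IR and sham, which the counts over all selected cells carry with them. Of 3509 genes, 8.81% were over 2-fold higher in IR and 6.64% lower. The fibroblast list stood at 57830 CPM in sham and 49910 CPM in IR. The interferon list had 16 of 17 members over 2-fold lower and the inflammatory mediators 11 of 15 higher and 2 lower, with medians of −2.69 and 2.81. Among the genes with the highest ratios were Tnc, the matrix protein tenascin-C, at 0 and 90.1 CPM, and Mt2, a metallothionein, at 217 and 3643 CPM (B cells 39.2 and 703 CPM). Among the lowest were Eln, elastin, at 300.4 and 44.9 CPM, and Apod, apolipoprotein D, at 647 and 89.3 CPM. Ace itself was at a median of 7.29 UMIs per 10,000 in sham and 3.54 in IR, where the cells were deeper (median 6436 and 15078 UMIs), so that the same 4-UMI limit lay at a lower level. A further 197 sham and 108 IR cells with Ace alone met every other limit but had no Lyz2 UMI. The mediators had free RNA in B cells at the values given above, and the part of it in these cells was not tested.

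At the limit of the rule, 106 sham and 60 IR cells had a gate sum of 3, of which 2 and 9 had at least 2 gate genes. With a gate sum of 4, the lowest accepted, there were 70 and 54 cells, of which 7 and 8 had at least 2 gate genes. The limit on the sum with Thbs1 and Vcan alone removed no sham and 18 IR cells with 2 or more gate genes, the limit on C1q genes 13 and 8, and the limit on S100a8 and S100a9 5 and 18.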

How the data were processed

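Single-cell 3′ libraries of dissociated left ventricles were made and sequenced by the study's authors, who ran Cell Ranger on mm10 and deposited whole-number counts of UMIs, 1 matrix per condition (27998 genes, 11620 and 8539 barcodes). Replicates were pooled and cannot be separated, so no test was made. The deposited barcodes carry no doublet calls, and none were made here. The gene limit in the study's methods (2500) leaves 9777 and 4880 cells and was run as an alternative. Counts were summed over the cells of a group and given per 1000000 UMIs (CPM). Ratios have exact conditional binomial intervals and shares Clopper-Pearson intervals (95%), which cover counting error only. A gene was compared at 50 CPM or more in the higher library, and counts under 3 UMIs were set to 3 as a floor in counts past 2-fold, list medians and alternative settings, while the ratio printed for a gene uses its own counts unless called a bound or compared with and without the Ly6c2 limit. Named are members of the lists and the 15 genes in each direction between conditions, ranked by the interval bound nearest to 0, and between cell groups, ranked by the smaller of both libraries' ratios. The self-test drew counts for multi-gate cells (2775 genes, 200 changed) from the summed sham profile, with no variation between cells or samples. It found 95.0% of the changed genes past 2-fold, 0.777% of the others, and intervals that held the true ratio for 95.9%. These figures check the calculation and are not error rates for the data. The members and lists were chosen with earlier results of these data known. Computation used Python 3.11.15, numpy 2.4.6, scipy 1.17.1, pandas 2.3.3 and matplotlib 3.10.9. Some genes, 1 of them in the rule, are not reported here.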

Additional observations from a re-analysis of the deposited data

Results flagged for a closer look

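In multi-gate cells and C1q-high macrophages, Fn1 and Lpl differed between IR and sham by more than 2-fold in opposite directions, and the difference was not tested, since each condition was 1 library. Fn1, fibronectin, had a log2 ratio of 4.21 in multi-gate cells, from 2 UMIs in 2 sham cells to 156 UMIs in 30 of 100 IR cells, and −2.10 in C1q-high macrophages. Lpl, lipoprotein lipase, had a log2 ratio of −1.69 in multi-gate cells, from 46 UMIs in 8 sham cells to 60 UMIs in 18 IR cells, and 3.87 in C1q-high macrophages. A single sham cell gave 47.8% of its sham UMIs. Without the cells that had over 1% fibroblast genes, the ratios in multi-gate cells were 4.80 and −1.23. Without the Ly6c2 limit the ratio of Fn1 was 1.02.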

How the results depend on the processing

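No paired analysis was possible because the samples numbered 1 to 4 in the labels are pooled in 1 matrix per condition, and for the same reason no replicate could be left out. The main results, each recomputed under the alternative settings, gave 122 values, of which 77 stayed within their limit and 45 moved past it. The limit was 1.5-fold for a count of genes and the counting interval of the main value for a share. The share of selected cells in sham (1.46%) was 1.19% with at most 2500 genes, 2.39% with a gate sum of at least 3, 0.299% with at least 8, 0.448% with at least 2 gate genes, 1.13% at 2000 UMIs, 0.448% with fibroblast genes under 1% and 2.7% with no Ly6c2 limit. In IR (3.12%) it was 1.25%, 3.85%, 1.3%, 1.21%, 1.23% and 1.2% under the first 6 of these and 2.45% with at most 4000 genes. Selected cells were also taken as a share of selected cells, cells lost to the Ly6c2 limit alone and classical monocytes together. This share counts Ace-only cells, which did not carry monocyte markers, except with at least 2 gate genes or fibroblast genes under 1%. In sham (35.5%) it was 45.7% with a gate sum of at least 3, 11.1% with at least 8 and 14.6% with at least 2 gate genes. It was 27.0% at 2000 UMIs, 14.8% with fibroblast genes under 1% and 65.6% with no Ly6c2 limit. In IR (49.0%) the same share was 75.3% with at most 2500 genes, 30.3% with a sum of at least 8 and 27.8% with at least 2 gate genes. It was 71.0% at 2000 UMIs, 41.6% with at most 4000 genes, 27.3% with fibroblast genes under 1% and 54.0% with no Ly6c2 limit. The 266 genes over 2-fold higher and 213 lower in all selected cells became 767 and 910 with at most 2500 genes, 412 and 382 with a sum of at least 8, 532 and 430 from 20 CPM and 999 and 4265 with no low filter. The lower count alone moved to 361 with at least 2 gate genes, 535 at 2000 UMIs, 348 with fibroblast genes under 1% and 459 with no Ly6c2 limit. For multi-gate cells, 368 and 361 became 648 and 818 from 20 CPM and 648 and 5173 with no filter. Against classical monocytes, 174 and 77 became 112 and 40 with no Ly6c2 limit. Of the gene ratios and list medians in multi-gate cells, 1156 values kept their size, 150 moved and 10 changed sign. Among the 10 are Saa3 at −0.51 and AA467197 at −0.83 with at most 2500 genes, and Cxcl5 at −0.39 with a gate sum of at least 8. In these 3, sham held at most 1 UMI and the floor of 3 UMIs stood in for it, so they are bounds that carry no direction. Cebpb was at −0.0133 with no Ly6c2 limit. The median of a vascular repair list (0.54) was −0.25 with at most 2500 genes, −0.61 at 2000 UMIs, −0.0301 with at most 4000 genes and −0.0747 with no low filter. That of a glucocorticoid list (0.74) was −0.51 with at most 2500 genes and −0.51 at 2000 UMIs. The cause was not tested. The alternatives on fibroblast genes and Ly6c2 were chosen after seeing the data.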
